A study of Homo sapiens with 6 samples.

Results

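This report describes 10 genes around the small GTPase Rap1 and the activation of integrins in SU-DHL-8 cells, an established human line of diffuse large B-cell lymphoma. The genes were taken by symbol from the deposited count table, and all 10 of them were found among its 65746 distinct genes. They are the GTPase genes RAP1A and RAP1B, the exchange factor genes RASGRP2 and RAPGEF1, the GTPase-activating protein genes SIPA1, SIPA1L1 and SIPA1L3, the effector gene APBB1IP, and the integrin activator genes TLN1 and FERMT3. RNA was sequenced from wild-type cells of this line after 24 h with beta-sitosterol (β-ST, a sterol of plants) at 15 µM. Control cells had DMSO for 24 h, and the sample titles give no DMSO concentration. Each group had 3 libraries labelled as replicates, and all cells were the same line in the same serum-containing medium. The p-values measure the spread between these samples. The DMSO libraries were less alike than the treated ones, with correlations of 0.9716 to 0.991 against 0.9936 to 0.9941. APBB1IP and SIPA1L3 were chosen because an earlier analysis of these same libraries placed them among the largest decreases after treatment. Their change is therefore given as a description with no test. The other 8 genes were listed for their role, also with earlier results known, and carry p-values adjusted over all 11525 genes tested.

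Rap1 is a molecular switch that is active when bound to GTP. Exchange factors such as CalDAG-GEFI (the product of RASGRP2) and that of RAPGEF1 load it with GTP, and GTPase-activating proteins of the SIPA1 family return it to the GDP-bound state. Active Rap1 at the plasma membrane recruits RIAM, the product of APBB1IP, and with it talin (TLN1), which binds the cytoplasmic tail of integrin beta subunits together with kindlin-3 (FERMT3). In lymphocytes this route turns on LFA-1 and VLA-4, the integrins used for arrest on vessel walls and for contact with other cells. Proteins and GTP loading were not measured here, and transcript levels do not give the activity of the switch.

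The promoters of APBB1IP and SIPA1L3 are shown because these transcripts were lower by a similar factor. Each sequence holds the 250 bases before the annotated start, from RefSeq on GRCh38.p14, plus strand, 5′ to 3′. Capitals mark matches on either strand to the motifs searched. These were the GC box (GGGCGG), the CAAT-box letters (CCAAT), an ETS-type core (GGAAGT), a purine-rich motif of the PU.1 type (GAGGAAG), the E-box (CACGTG), the AP-1 motif (TGANTCA) and a TATA-box core (TATAAA).
APBB1IP, chr10:26438091-26438340: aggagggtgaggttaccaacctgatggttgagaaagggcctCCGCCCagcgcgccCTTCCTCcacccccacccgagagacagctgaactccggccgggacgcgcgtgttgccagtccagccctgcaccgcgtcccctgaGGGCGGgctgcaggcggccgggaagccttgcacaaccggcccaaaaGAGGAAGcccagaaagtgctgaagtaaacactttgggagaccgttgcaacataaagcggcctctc
SIPA1L3, chr19:37906958-37907207: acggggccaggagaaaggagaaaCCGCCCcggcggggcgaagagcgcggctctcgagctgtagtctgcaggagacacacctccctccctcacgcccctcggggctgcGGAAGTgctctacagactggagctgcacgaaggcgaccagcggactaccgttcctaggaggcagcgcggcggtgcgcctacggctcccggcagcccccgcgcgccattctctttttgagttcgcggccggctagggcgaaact
The APBB1IP window held 2 matches to GGGCGG and 2 to GAGGAAG, the latter starting 195 and 65 bases before the start site. The SIPA1L3 window held 1 match to GGGCGG and 1 to GGAAGT. The motif GAGGAAG shares 5 letters with GGAAGT, so the searches overlap in part. Among all 35116 promoters of the table, 42.6% held GGGCGG, 11.2% GAGGAAG and 19.5% GGAAGT in the same window. Over the 16 promoters listed for the 10 genes, 10 held GGGCGG, 4 held GAGGAAG and 4 held GGAAGT. The motifs CCAAT and TGANTCA were each found in 1 of the 16 promoters, against 32.0% and 6.57% of all, and CACGTG and TATAAA in 0 of the 16, against 6.34% and 10.7% of all. A match describes letters and not a site in use, and only GGGCGG was found in both windows shown.

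Libraries held 26453101 to 35565163 counts. Levels are counts scaled to library size (CPM) after TMM scaling, with mean ± SD of 3 libraries, and log2 fold changes compare treated with DMSO libraries ± SE from edgeR. In bulk RNA, fewer cells of a kind and less RNA per cell cannot be told apart, and CPM is relative to the rest of the library. All 9 B-cell markers were above 1 CPM, with sums of 1956 to 2624 CPM in DMSO and 2360 to 2526 CPM in treated libraries. Single markers moved both ways within that sum. PAX5 was at 610.1 to 691.6 CPM in DMSO and 198 to 217 CPM in treated libraries, and EBF1 at 63.3 to 110.7 and 18.1 to 20.5 CPM, while CD79A was at 328 to 423 and 738 to 799.7 CPM and MS4A1 at 3.29 to 4.55 and 16.9 to 19.6 CPM. RASGRP2 and FERMT3 are known for their roles in platelets, and the platelet markers PF4, PPBP and GP9 were at 0 counts in every library. GP1BA, another platelet marker, stood at 7.85 to 10.3 CPM in DMSO and 2.44 to 3.67 CPM in treated libraries, and the 7 platelet markers together at 8.83 to 10.4 and 2.65 to 4.51 CPM. The 7 T-cell markers summed to at most 0.125 CPM, with 4 at 0, and the 7 myeloid markers to 5.87 to 8.60 CPM in DMSO and 7.06 to 9.27 CPM in treated libraries, mostly from LYZ. The 5 erythroid markers summed to 0.063 to 0.231 and 0.034 to 0.364 CPM, and the 5 stromal markers to 0.059 to 0.125 and 0.719 to 1.16 CPM. The part of these transcripts in the results was not tested.

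Across the 10 genes, 7 passed the threshold of an adjusted p of 0.05, 5 lower and 2 higher, where 40.8% of all tested genes passed, 21.8% lower and 19.0% higher. Nothing is read from this count, because 2 of the genes were chosen on the same contrast. Of the other 8 genes, 3 fell, 2 rose and 3 did not pass. The increases depended on the scale. On log2(TPM + 1) with limma 0 of the 10 genes were higher and 5 lower. Of all tested genes, 713 were higher and 2226 lower on that scale, against 2185 and 2512 on counts. The TPM were used as deposited, with no scaling between libraries. They reached 64.6%, 39.5% and 69.2% of the full total in DMSO replicates 1, 2 and 3. In treated libraries they reached 57% to 57.8%. Values of treated and DMSO libraries did not overlap for 8 of the 10 genes, 6 lower and 2 higher. The share over all tested genes was 56.1%, 29.1% lower and 27.0% higher. Of the 8 genes not chosen on this contrast, 6 did not overlap, and nothing is read from either count. The median log2 fold change was -0.61 over the 10 genes and -0.04 over all tested genes. Over the 8 genes not chosen on this contrast it was -0.35. The value of -0.61 includes the 2 chosen genes, so nothing is read from it.

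**Figure D1:**
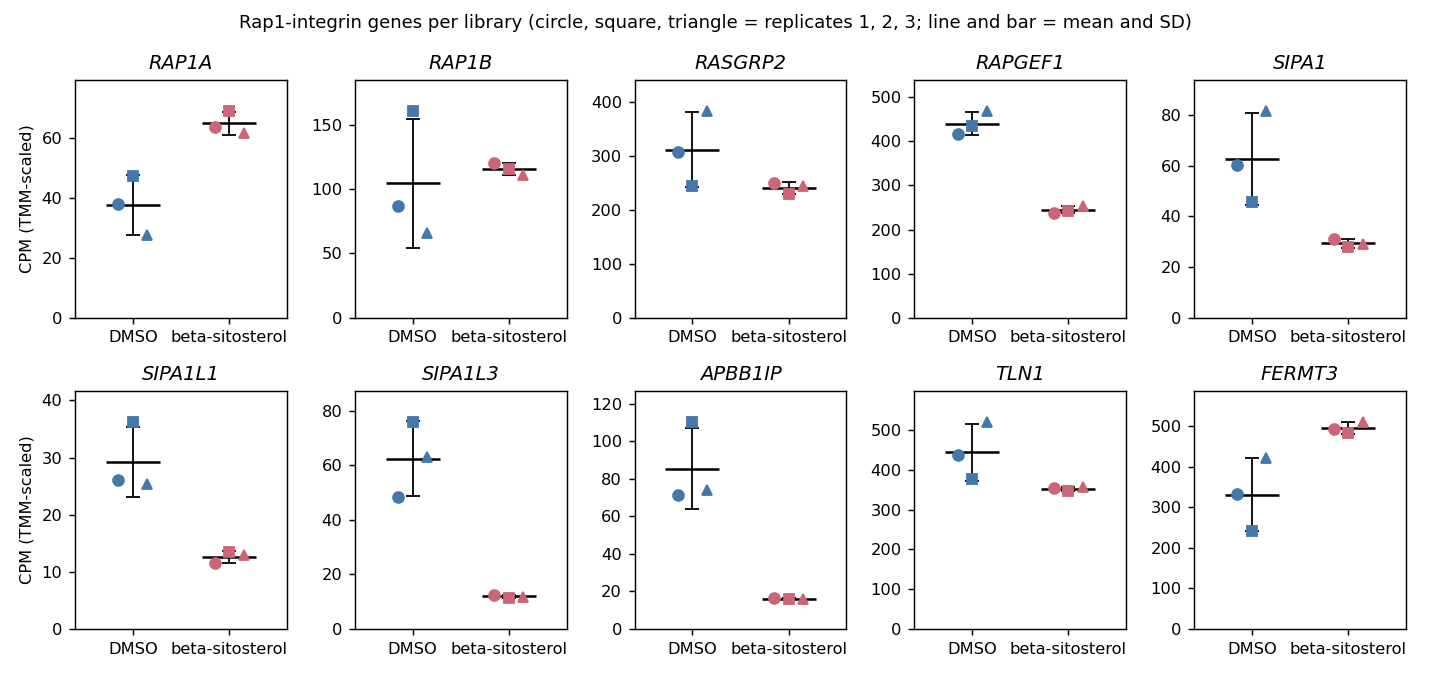
Each panel plots TMM-scaled CPM (linear axis from 0) of 1 gene in the 3 DMSO and 3 beta-sitosterol libraries, with the mean as a line, the SD as a bar and replicates 1, 2 and 3 as circle, square and triangle. APBB1IP and SIPA1L3 lie far lower after treatment, RAP1A and FERMT3 lie higher, and DMSO replicate 2 (the square) is the highest or the lowest DMSO library in 9 of the 10 panels, RAPGEF1 being the exception.

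APBB1IP encodes RIAM, the adaptor that links active Rap1 to talin. It stood at 71.7, 110.3 and 74.2 CPM in DMSO replicates 1, 2 and 3, and at 16.4, 15.97 and 16.1 CPM in the treated replicates. The 3 treated libraries were nearly equal and lay far below every DMSO library. The level was 5.29-fold lower after beta-sitosterol, a log2 fold change of -2.40 ± 0.19, and 22 of the 11525 tested genes had a lower value. The gene lies on chromosome 10, 26438341 to 26567803 (GRCh38.p14), where it overlaps a 5S ribosomal RNA pseudogene. In the authors' TPM table, which scales for length, the values were 76.1, 74.8 and 78.6 in DMSO and 12.8, 12.2 and 12.1 in treated libraries. The high CPM of DMSO replicate 2 is thus not seen on that scale, in which the listed genes of that library sum to a smaller total.

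SIPA1L3 encodes a large protein of the SIPA1 family with a Rap GTPase-activating domain. It stood at 48.4, 75.9 and 62.98 CPM in the DMSO replicates and at 12.6, 11.2 and 11.9 CPM in the treated ones. The groups were apart by a wide margin, and DMSO replicate 2 was again the highest library. The level was 5.24-fold lower, a log2 fold change of -2.39 ± 0.18, next to that of APBB1IP among all genes, with 23 genes lower. SIPA1L3 lies on chromosome 19, 37907208 to 38208369, and overlaps a long non-coding RNA gene, a small nucleolar RNA gene and a pseudogene. Without DMSO replicate 2 the log2 fold changes were -2.18 for APBB1IP and -2.23 for SIPA1L3.

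SIPA1 and SIPA1L1, of the same family, fell as well. SIPA1, the founding member (SPA-1, chromosome 11, 65638101 to 65650912), is highly expressed in lymphoid cells and restrains Rap1 there. It stood at 60.4, 45.8 and 81.8 CPM in DMSO and 31.1, 27.9 and 29.02 CPM in treated libraries. Here DMSO replicate 2 was the lowest DMSO library, yet it lay above all treated ones. SIPA1 fell by 1.10 ± 0.20 on the log2 scale (edgeR adjusted p = 0.0035). SIPA1L1, a relative best known from synapses (chromosome 14, 71320476 to 71741209), stood at 26.1, 36.2 and 25.4 CPM in DMSO and 11.5, 13.5 and 12.9 CPM in treated libraries. It fell by 1.21 ± 0.17 (edgeR adjusted p = 0.0011), with no overlap between the groups. Its antisense gene SIPA1L1-AS1 was listed at 0, and whether counting used strand is not known from the sources here. SIPA1L2, the remaining relative, was low throughout at 2.79 ± 0.53 and 2.12 ± 0.063 CPM. Its log2 fold change of -0.39 ± 0.22 did not pass (edgeR adjusted p = 0.18, 95% interval -0.88 to 0.10). On log2(TPM + 1) with limma SIPA1L2 passed narrowly at -0.23 (adjusted p = 0.047), where all tested genes had a median of -0.19.

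By TPM, SIPA1L3 made up 40.2%, 54.95% and 40.3% of the summed SIPA1 family in DMSO replicates 1, 2 and 3 and 25.4%, 24.5% and 25.1% in the treated replicates. SIPA1 itself made up 49.9%, 33.0% and 52.1% in DMSO and 62.3%, 60.4% and 60.95% in treated libraries. Thus the SIPA1L3 share was lower and the SIPA1 share higher in each treated library than in any DMSO library. These shares follow from the choice of SIPA1L3 and are a description. They also depend on the length used. When CPM was divided by the longest GENCODE v29 transcript instead, SIPA1L3 made up 23.0%, 34.9% and 23.1% in DMSO and 13.2%, 12.6% and 13.0% in treated libraries.

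**Figure D2:**
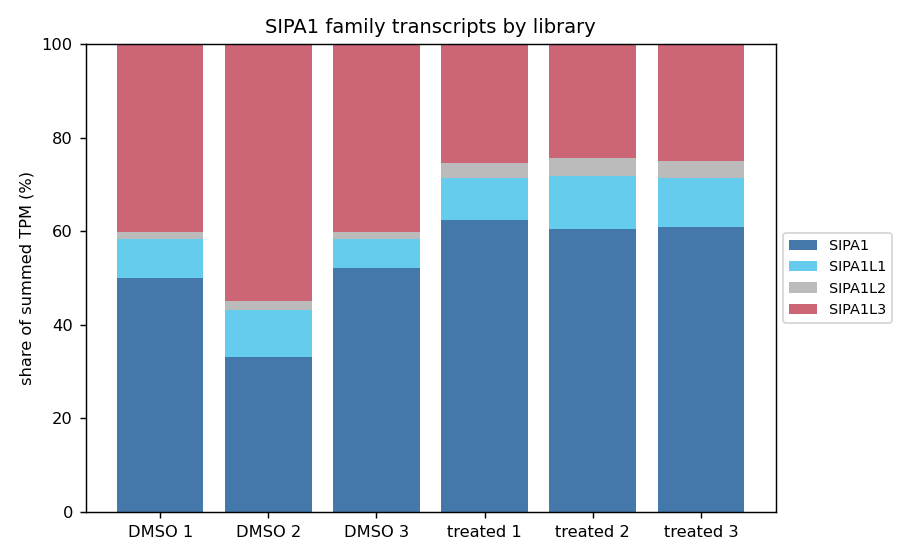
Stacked bars give the share (%) of SIPA1, SIPA1L1, SIPA1L2 and SIPA1L3 in their summed TPM, 1 bar per library. The SIPA1L3 part spans 40.2% to 54.95% in the 3 DMSO libraries and 24.5% to 25.4% in the 3 treated libraries.

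Of the 2 genes of Rap1 itself, RAP1A rose and RAP1B did not pass, and the difference between them was not tested. RAP1A (chromosome 1, 111542009 to 111716691) stood at 38.1, 47.5 and 27.5 CPM in DMSO and 63.8, 69.2 and 61.8 CPM in treated libraries. All treated libraries lay above all DMSO libraries, and RAP1A rose by 0.78 ± 0.19 on the log2 scale (edgeR adjusted p = 0.012). On the log2(TPM + 1) scale its change was 0.54 with limma (adjusted p = 0.063), where all tested genes had a median of -0.19. RAP1B (chromosome 12, 68610899 to 68671901), the form that predominates in platelets and lymphocytes, stood at 86.7, 161 and 65.8 CPM in DMSO and 120.3, 115.5 and 110.98 CPM in treated libraries. DMSO replicate 2 lay above every treated library and the other DMSO libraries below them. Its log2 fold change was 0.15 ± 0.29 (edgeR adjusted p = 0.71), with a 95% interval from -0.51 to 0.80. Without DMSO replicate 2 RAP1B was higher by 0.60 ± 0.11 (edgeR adjusted p = 3.66e-04), so this library decides the call. The processed pseudogene RAP1AP held at most 5 counts in a library, and the 3 pseudogenes of RAP1B were listed at 0. How reads shared with such copies were counted is not given in the sources used here.

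Per length, RAP1A stood above RAP1B in the DMSO libraries by TPM, at 20.4 ± 3.52 against 11.8 ± 2.60, and in each of the 3 libraries. Per kilobase of the longest GENCODE transcript the pair were close, at 7.504 and 7.78 CPM. The order of the 2 genes in untreated cells therefore depends on the lengths used. After treatment RAP1A was the higher by either length, at 29.9 ± 1.87 against 11.6 ± 0.64 TPM and 12.9 against 8.60 CPM per kilobase.

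Among the exchange factors, RAPGEF1 fell and RASGRP2 did not pass the test. RAPGEF1 encodes an exchange factor that is brought to adhesion sites by CRK adaptors (chromosome 9, 131576775 to 131740076). It stood at 418, 434 and 469.7 CPM in DMSO and 238, 243 and 254 CPM in treated libraries, with every DMSO library above every treated one. RAPGEF1 fell by 0.85 ± 0.11 on the log2 scale (edgeR adjusted p = 6.19e-04). RASGRP2 encodes CalDAG-GEFI, which responds to calcium and diacylglycerol (chromosome 11, 64726911 to 64745456). It stood at 306, 245 and 384 CPM in DMSO and 249.6, 229 and 244 CPM in treated libraries. Its lowest DMSO library lay within the treated range, and the log2 fold change was -0.37 ± 0.16 (edgeR adjusted p = 0.10). Without DMSO replicate 2 it was -0.52 ± 0.096 (edgeR adjusted p = 2.82e-04).

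Of the integrin activators, FERMT3 rose and TLN1 did not pass. TLN1, the talin gene (chromosome 9, 35696948 to 35732195), stood at 437, 377 and 520.4 CPM in DMSO and 355, 347 and 357 CPM in treated libraries. The groups did not overlap, but the gap to DMSO replicate 2 was small, and the log2 fold change of -0.33 ± 0.13 did not pass (edgeR adjusted p = 0.078). Without DMSO replicate 2 it was -0.45 ± 0.086 (edgeR adjusted p = 4.29e-04). FERMT3, the kindlin gene of blood cells (chromosome 11, 64205920 to 64223891), stood at 332, 241 and 421 CPM in DMSO and 494, 482 and 509.8 CPM in treated libraries. FERMT3 rose by 0.58 ± 0.19 on the log2 scale (edgeR adjusted p = 0.038), with all treated libraries above all DMSO libraries. This call was lost without DMSO replicate 1 (edgeR adjusted p = 0.11), without treated replicate 1, 2 or 3 (0.10, 0.092 and 0.11), on log2(TPM + 1) with limma (0.49) and with a length trend removed (0.052). FERMT3 overlaps TRPT1, whose level of 13.9 ± 4.43 and 18.3 ± 0.93 CPM is small beside it.

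**Figure D3:**
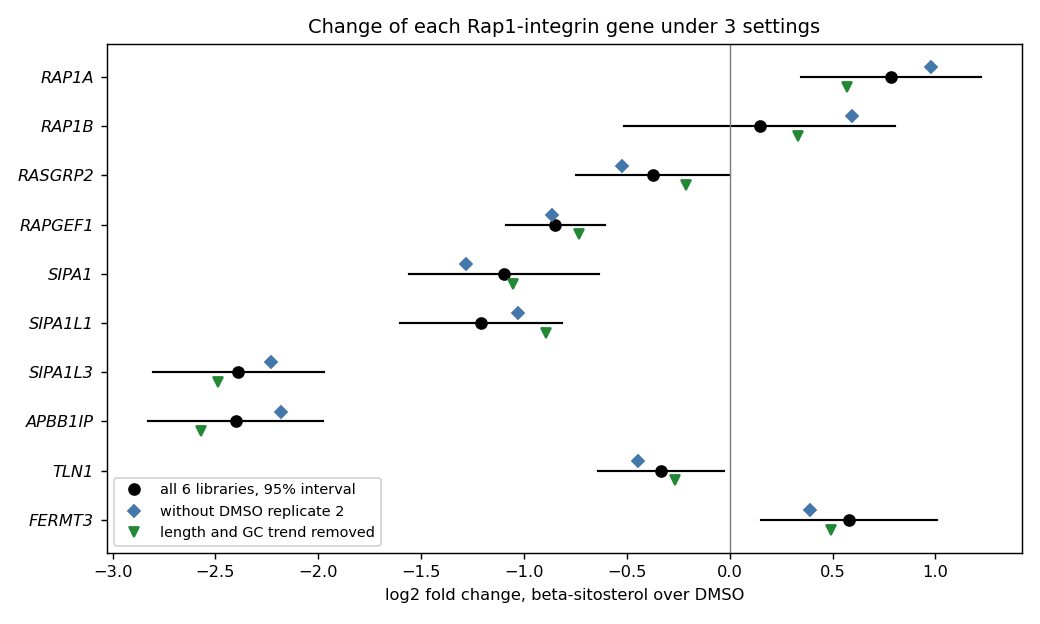
Log2 fold changes (beta-sitosterol over DMSO) of the 10 genes, with dots and 95% intervals for all 6 libraries, diamonds for the fit without DMSO replicate 2 and triangles for the fit with trends of length and GC content removed. Each gene keeps its sign in all 3 fits, and the RAP1B interval spans 0 from -0.51 to 0.80.

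DMSO replicate 2 stood apart from the other DMSO libraries in a way that followed base composition. Over the 11376 tested genes with a GENCODE transcript, its log2 CPM relative to the mean of DMSO replicates 1 and 3 had a median of 0.31 in the GC quartile with the lowest content and -0.42 in that with the highest. RAP1A and RAP1B, with 37.8% and 37.9% GC, were at 0.55 and 1.09 in that library. SIPA1, RASGRP2, FERMT3 and TLN1, with 66.8%, 63.9%, 61.6% and 57.7% GC, were at -0.62, -0.49, -0.64 and -0.34. SIPA1L3 went against this order, with 61.9% GC and 0.46, and APBB1IP was at 0.60 with 53.1% GC. With trends of length and GC removed in each library, an alternative added after the data were seen, RASGRP2 and TLN1 passed the test, at -0.21 ± 0.067 and -0.27 ± 0.067 (edgeR adjusted p = 0.030 and 0.013), and RAP1B did not (0.33 ± 0.17, edgeR adjusted p = 0.15). APBB1IP and SIPA1L3 then had log2 fold changes of -2.57 and -2.49.

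**Figure D4:**
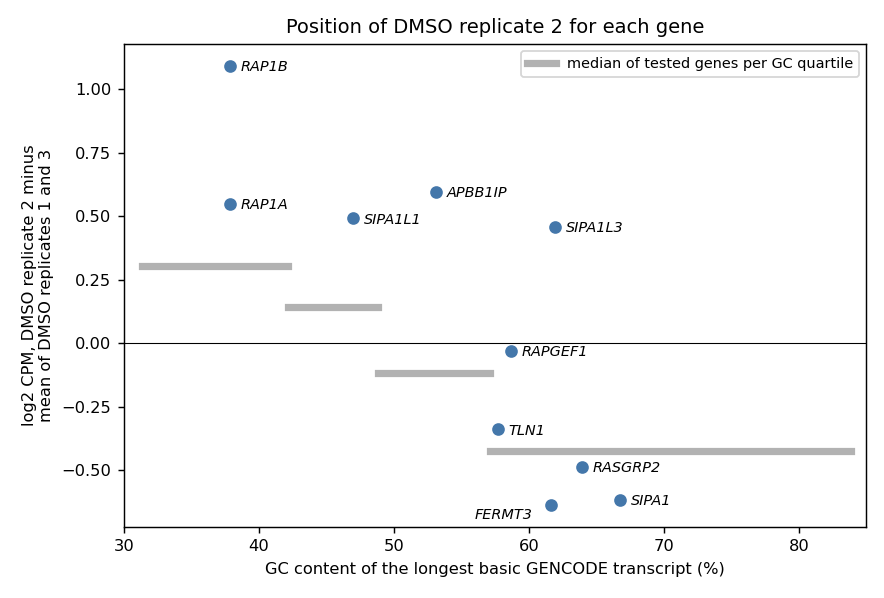
The vertical axis gives log2 CPM in DMSO replicate 2 minus the mean of DMSO replicates 1 and 3, and the horizontal axis the GC content (%) of the longest GENCODE basic transcript. Grey bars are medians of all tested genes per GC quartile, from 0.31 down to -0.42, and dots are the 10 genes, of which SIPA1L3, RAP1B and APBB1IP lie farthest above their quartile's bar.

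Gene length also moved with the treatment contrast across all genes. The length here is the one implied by the authors' TPM, whose definition is not stated and which can differ from GENCODE: RASGRP2, in the longest quartile, has a longest GENCODE transcript of 2983 bases, against 7987 for SIPA1L3. In the quartile of tested genes with the shortest length, 13.0% were lower and 28.6% higher, and in the longest quartile 32.6% were lower and 11.1% higher. APBB1IP belongs to the shortest quartile and SIPA1L3, SIPA1 and TLN1 to the third, while SIPA1L1, RAP1B, RASGRP2 and RAPGEF1 belong to the longest. With the length trend removed, APBB1IP and SIPA1L3 stood at -2.64 and -2.40, SIPA1L1 at -0.96 and RAPGEF1 at -0.75.

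Genes with neighbouring roles were examined in lists set by function. Apart from the 10 genes, 89 genes were listed and 62 of them tested, of which 16 were higher, 20 lower and 26 not past the threshold. The share of all tested genes past it was 40.8%, 21.8% lower and 19.0% higher. The lists were not tested as sets, and each count per list is to be set beside these shares. The median log2 fold change of these 62 genes was -0.14. On log2(TPM + 1) with limma, 4 of them were higher and 19 lower, where 713 of all 11525 tested genes were higher and 2226 lower. The calls of RAP1GDS1, RAPGEF3, RASA3, ITGB1BP1, ITGAL, ITGB2, ICAM3, ICAM5, FN1 and PARVB, given as increases in the paragraphs on these lists, were lost on that scale (limma adjusted p from 0.057 for PARVB to 0.53 for ITGB2). AFDN, ITGB3, ICAM4 and VCAM1 were listed at 0 in every library. Nothing is read from these zeros.

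Of 4 other Rap GTPase and chaperone genes, 1 rose, 1 fell and 2 did not pass. RAP1GDS1, which encodes the chaperone SmgGDS of prenylated small GTPases, rose by 0.64 ± 0.12 on the log2 scale, with 43.0 ± 4.34 CPM in DMSO and 66.9 ± 2.40 CPM in treated libraries (edgeR adjusted p = 0.0040). RAP2A fell by 0.39 ± 0.13 (edgeR adjusted p = 0.040) but did not pass when DMSO replicate 1 (0.11) or any of treated replicates 1, 2 and 3 (0.090, 0.10 and 0.18) was left out, without a filter on low counts (0.070), or on log2(TPM + 1) with limma (0.073). RAP2B and RAP2C stood at -0.40 ± 0.14 and -0.01 ± 0.15 (edgeR adjusted p = 0.053 and 0.97). RAP2B passed without DMSO replicate 2 (-0.50, edgeR adjusted p = 0.0020), with library totals in place of TMM (0.047) and with the trend of length (0.020) or of length and GC (0.030) removed.

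Of 7 other exchange factor genes tested, 2 rose and 1 fell. RASGRP3, a diacylglycerol-dependent exchange factor of B cells for Ras and Rap, held 7, 21 and 14 counts in DMSO and 117, 85 and 101 counts in treated libraries. RASGRP3 rose by 3.10 ± 0.35 on the log2 scale (edgeR adjusted p = 4.56e-04), from 0.42 ± 0.23 to 3.62 ± 0.38 CPM, while RASGRP2 supplied at least 98.08% of the summed RASGRP1, RASGRP2 and RASGRP3 TPM in every library. RAPGEF3, the cAMP-gated EPAC1, rose by 0.70 ± 0.16 (edgeR adjusted p = 0.0094). RAPGEF2 fell by 0.51 ± 0.14 (edgeR adjusted p = 0.018), and did not pass without treated replicate 1, 2 or 3 (0.075, 0.056 and 0.089) or with the length trend removed (0.093). DOCK4 stood at 3.21 ± 0.56 CPM in DMSO and 1.91 ± 0.84 CPM in treated libraries and did not pass (edgeR adjusted p = 0.12). By TPM in DMSO, RAPGEF1 stood highest at 95.8 ± 24.5, followed by RASGRP2 at 55.1 ± 22.5, RAPGEF2 at 8.52 ± 1.01 and RAPGEF3 at 2.69 ± 1.06. RAPGEF1 exceeded RASGRP2 in each library on this scale, but per kilobase of the longest GENCODE transcript RASGRP2 was the higher, at 104 against 70.4 CPM.

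Of 3 other GTPase-activating genes tested, 1 rose. RASA3, which acts on Ras and Rap1 and is known from platelets, went from 19.6, 18.8 and 20.2 CPM to 29.5, 30.9 and 33.7 CPM. RASA3 rose by 0.68 ± 0.12 (edgeR adjusted p = 0.0029), opposite in direction to SIPA1 and SIPA1L1. GARNL3 was at 0.23 ± 0.18 (edgeR adjusted p = 0.34). By TPM in DMSO, SIPA1, SIPA1L3 and RASA3 averaged 21.8 ± 10.04, 20.4 ± 3.19 and 17.8 ± 4.70, and their order differed between libraries. In DMSO replicates 1, 2 and 3 SIPA1 stood at 23.0, 11.2 and 31.1. SIPA1L3 stood at 18.55, 18.6 and 24.1 there, and RASA3 at 20.3, 12.4 and 20.8. In treated libraries SIPA1, SIPA1L3 and RASA3 stood at 8.06 ± 0.54, 3.29 ± 0.22 and 23.4 ± 1.29, with SIPA1L1 at 1.35 ± 0.098. Per kilobase of the longest GENCODE transcript the order was another, with SIPA1 at 17.3, SIPA1L3 at 7.82 and RASA3 at 4.66 CPM in DMSO and at 8.08, 1.49 and 7.48 CPM after treatment. The place of RASA3 against SIPA1 thus depends on the length used.

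Of 8 other tested genes of Rap effectors and RIAM partners, 5 fell and 0 rose. Among all tested genes 21.8% were lower and 19.0% higher. TIAM1, a Rac exchange factor that binds Rap1, fell by 1.36 ± 0.13 on the log2 scale, with 24.4 ± 0.90 CPM in DMSO and 9.53 ± 0.49 CPM in treated libraries (edgeR adjusted p = 2.06e-04). RASSF5, whose product RAPL links Rap1 to LFA-1 in lymphocytes, fell by 0.68 ± 0.13 (edgeR adjusted p = 0.0040), and STK4, the kinase MST1 that RAPL binds, fell by 0.50 ± 0.15 (edgeR adjusted p = 0.026). STK4 did not pass when DMSO replicate 1 (0.075) or any of treated replicates 1, 2 and 3 (0.087, 0.083 and 0.10) was left out. EVL, an Ena/VASP actin regulator of the kind that binds RIAM, fell by 0.62 ± 0.12 (edgeR adjusted p = 0.0046).

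**Figure D5:**
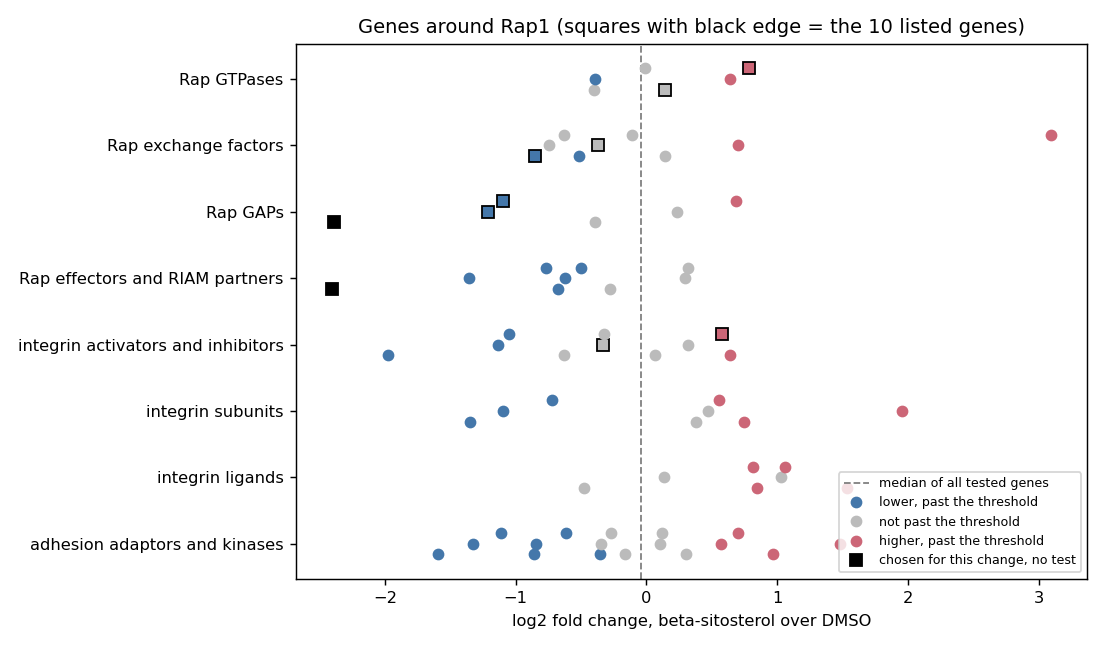
Log2 fold changes (beta-sitosterol over DMSO) of all tested genes in 8 lists, 1 row per list, with squares for the 10 listed genes and circles for the others. Red is higher and blue lower past the threshold, grey is not past it, black marks APBB1IP and SIPA1L3, which are given without a test, and the dashed line is the median of all genes at -0.04. RASGRP3 lies farthest right at 3.10.

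Of 8 other activators and inhibitors of integrins tested, 3 fell and 1 rose. TLN2, the other talin gene, fell by 1.97 ± 0.14 on the log2 scale to 6.65 ± 0.61 CPM from 26.1 ± 2.25 CPM (edgeR adjusted p = 1.01e-04). KANK2, whose product binds talin at adhesion sites, fell from 298 ± 20.04 to 144 ± 1.78 CPM (edgeR adjusted p = 2.86e-04). CYTH1 (cytohesin-1), which binds the tail of the beta 2 integrin, fell from 155.5 CPM (SD 11.4) to 70.7 CPM (SD 2.58), with an edgeR adjusted p of 2.65e-04. ITGB1BP1, the inhibitor ICAP-1 of the beta 1 integrin, rose by 0.64 ± 0.13 (edgeR adjusted p = 0.0048). By TPM in DMSO, FERMT3 averaged 161 ± 72.4 and TLN1 152 ± 54.5, and their order differed between libraries. In DMSO replicates 1, 2 and 3 FERMT3 stood at 177, 82.0 and 224 and TLN1 at 167, 91.8 and 198. After treatment they stood at 190.2 ± 4.72 and 96.8 ± 2.005. Per kilobase of the longest GENCODE transcript FERMT3 was the higher in both groups, at 133 against 50.4 CPM in DMSO and 199 against 39.99 CPM after treatment.

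Of 8 tested integrin subunit genes, 3 rose and 3 fell. ITGB2, the common beta chain of leukocyte integrins, stood at 216, 148 and 259 CPM in DMSO and 313, 293 and 307 CPM in treated libraries. ITGB2 rose by 0.55 ± 0.19 (edgeR adjusted p = 0.045), a call lost when DMSO replicate 1 (0.11) or any of treated replicates 1, 2 and 3 (0.13, 0.10 and 0.12) was left out. ITGAL, the alpha chain of LFA-1, rose by 0.75 ± 0.16 on the log2 scale, with 3.82 ± 0.24 CPM in DMSO and 6.42 ± 0.18 CPM in treated libraries (edgeR adjusted p = 0.0060). ITGAE rose by 1.95 ± 0.28 on the log2 scale, with 23.6 ± 9.32 CPM in DMSO and 91.3 ± 2.88 CPM in treated libraries (edgeR adjusted p = 0.0012). ITGB7, the beta chain with which ITGAE pairs, held 6, 0 and 2 counts in DMSO and 2, 1 and 6 in treated libraries and was too low to test. ITGA4, the alpha chain of VLA-4, fell by 0.72 ± 0.12 on the log2 scale, with 144.5 ± 13.3 CPM in DMSO and 87.8 ± 1.94 CPM in treated libraries (edgeR adjusted p = 0.0019). ITGA5, a fibronectin receptor chain, fell by 1.09 ± 0.18 (edgeR adjusted p = 0.0022). ITGB1, the beta chain of VLA-4, averaged 36.5 ± 10.5 CPM in DMSO and 47.4 ± 2.06 CPM in treated libraries and did not pass (edgeR adjusted p = 0.17). With DMSO replicate 2 left out its adjusted p from edgeR was 0.0013. In the main fit the genes of the LFA-1 chains were thus higher and that of the VLA-4 alpha chain lower. Both LFA-1 calls were lost on log2(TPM + 1) with limma (adjusted p = 0.53 for ITGB2 and 0.15 for ITGAL). That of ITGB2 was also lost without single libraries, as given above.

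Of 7 tested integrin ligand genes, 4 rose and 0 fell, where 19.0% of all tested genes were higher and 21.8% lower. ICAM1, the main ligand of LFA-1 and a known target of NF-kB, rose by 1.53 ± 0.15 on the log2 scale, with 7.11 ± 0.95 CPM in DMSO and 20.6 ± 1.07 CPM in treated libraries (edgeR adjusted p = 2.38e-04). ICAM5 and ICAM3, other LFA-1 ligands, rose by 1.06 ± 0.21 and 0.84 ± 0.28 (edgeR adjusted p = 0.0044 and 0.042). FN1, at 2.10 ± 0.78 and 3.70 ± 0.62 CPM, passed narrowly (edgeR adjusted p = 0.0495). The ICAM3 call was lost without DMSO replicate 1 (0.11) and without each treated replicate (0.081 to 0.11), and the FN1 call without any library but DMSO replicate 2 (0.076 to 0.17).

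Of 17 tested adaptor and kinase genes, 4 rose and 7 fell. NEDD9, an adhesion scaffold of lymphocytes, fell by 1.59 ± 0.17 on the log2 scale, with 20.9 ± 3.75 CPM in DMSO and 6.90 ± 0.55 CPM in treated libraries (edgeR adjusted p = 3.32e-04), and its partner kinase gene PTK2B (PYK2) fell by 1.11 ± 0.13 (edgeR adjusted p = 5.40e-04). The Src family kinase gene LYN fell by 0.86 ± 0.13 (edgeR adjusted p = 0.0016). PLCG2, which makes the diacylglycerol that RasGRP proteins bind, fell by 0.62 ± 0.11 on that scale, with 236 ± 10.4 and 154 ± 6.53 CPM (edgeR adjusted p = 0.0025). PARVB, which encodes an actin-binding partner of integrin-linked kinase, rose by 0.97 ± 0.13 on the log2 scale, with 23.4 ± 2.66 CPM in DMSO and 45.7 ± 2.40 CPM in treated libraries (edgeR adjusted p = 8.99e-04).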

How the data were processed

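RNA-seq of 3 DMSO and 3 beta-sitosterol libraries was used. The authors deposited whole read counts per gene and TPM. Tools listed in the submitters' processing notes are featureCounts 2.0.1, StringTie 2.2.1, STAR 2.7.10 and fastp 0.23.2, with GRCh38. The annotation, the use of strand and the treatment of reads with several hits are not stated in these sources. The deposited TPM equal counts divided by a constant per gene and per library, and reached 39.5% to 69.2% of the full TPM total per library.

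Of 65807 rows, 61 repeated symbols were dropped. Counts passing filterByExpr were tested in R 4.3.3 with the edgeR 4.0.16 quasi-likelihood test (TMM, treatment as the only term, two-sided, Benjamini-Hochberg). SE was derived as log2 fold change / sqrt(F). The test was also run on simulated data, whose results are not given here, and nothing is read from that check. Alternatives used limma 3.58.1, DESeq2 1.42.0 and mgcv 1.9.3. GC content and longest-transcript length came from GENCODE v29 (GRCh38), gene positions and promoters from RefSeq. The length quartiles and the length trend used the length implied by the TPM constant, not the GENCODE length. Members and lists were chosen with earlier results of these data known. Named genes are the 10 members, up to 4 tested genes of each list by smallest p, 10 genes added by role, and the 3 most alike to APBB1IP and to SIPA1L3.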

Additional observations from a re-analysis of the deposited data

How the results depend on the processing

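Under all 17 alternatives SIPA1, SIPA1L1 and RAPGEF1 kept their direction and their side of the threshold, with log2 fold changes from -1.30 to -0.82, -1.38 to -0.89 and -1.10 to -0.73. Those of APBB1IP and SIPA1L3, chosen for their decrease, ranged from -2.64 to -2.18 and from -2.59 to -2.23, as a description. On log2(TPM + 1) and log2(TPM + 0.1) with limma, 713 and 691 of all genes were higher, 0 of the 10 genes on either, and 4 of the pathway genes on either, where the median of all genes lay at -0.19 and -0.26. With the length trend removed 1 of the 10 genes was higher and 5 lower, where 2051 of all genes were higher and 2693 lower. Leaving out 1 library each gave 1 to 3 of the 10 genes higher and 5 to 7 lower, 12 to 18 pathway genes higher and 14 to 23 lower, and 1501 to 3091 of all genes higher and 1593 to 3549 lower. RAP1B changed sign on log2(TPM + 1) and log2(TPM + 0.1) (-0.0094 and -0.0084) and without DMSO replicate 3 (-0.0647), and without DMSO replicate 2 it passed at 0.5951. GARNL3 changed sign on the same TPM scales (-0.0167 and -0.0271). RAP2C changed sign with RLE factors (0.0216), no filter (6e-04), a filter of 1 CPM in 3 libraries (0.0024), DESeq2 (0.0218), without DMSO replicate 1 or 2 (0.0433 and 0.0039) and without treated replicate 2 or 3 (0.0195 and 0.076), with -0.1325 without treated replicate 1. The cause was not tested. Equal replicate numbers did not pair the samples by the rule used (correlations of deviations 0.04, 0.10 and 0.15), although every library correlated best with its own number. With a replicate block 4743 genes passed, against 4697. Of the 10 genes 2 were then higher and 5 lower, and of the pathway genes 17 were higher and 20 lower. All counts of the 10 genes given here include APBB1IP and SIPA1L3, so nothing is read from them. DOCK4 passed only with the block (adjusted p = 0.043).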

Other observations

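Profiles over the 6 libraries were compared by Pearson's correlation of log2 CPM, as a description, among 8734 genes outside the 10 with a mean of at least 5 CPM. The 3 genes closest to APBB1IP were FAM120A, SPTBN1 and TRAK1 (r = 0.9997, 0.9995 and 0.9994). SPTBN1, a spectrin gene of the membrane skeleton, went from 1580 ± 226 to 533 ± 4.36 CPM, and TRAK1, a kinesin adaptor gene, from 132 ± 16.3 to 54.2 ± 1.36 CPM. FAM120A went from 293 ± 31.3 to 152 ± 0.996 CPM. The 3 closest to SIPA1L3 were PTBP1, USP36 and MICAL3 (r = 0.9997, 0.9994 and 0.9992). MICAL3, a gene of an actin-linked oxidoreductase, went from 53.6 ± 7.07 to 24.1 ± 0.42 CPM. Correlations above 0.99 were reached by 221 genes for APBB1IP and 193 for SIPA1L3, since the points share 2 groups of libraries that differ for many genes.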
